A study of Homo sapiens with 8 samples.

Results

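The genes described here mark the distal lung epithelium and its mucous secretions. They are the lineage factor NKX2-1, the surfactant proteins SFTPB and SFTPC, the lamellar body genes ABCA3, NAPSA and LAMP3, and the mucins MUC1, MUC5AC, MUC5B and MUC16. The 10 symbols were fixed as a list and matched to array probes through the RefSeq accession that the scanner files give for each probe. In all, 9 of the 10 were matched, by 13 probes among the 19056 genes with a match, and MUC5AC has no value here.

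The expression data came from A549, an established line of human lung carcinoma cells with no genetic change made for the study, on 8 Agilent whole human genome arrays with a single dye. In the first series the cells received 0, 1.25, 5 or 20 μg/mL EEDS, the ethanol extract of Descurainia sophia seeds, and in the second 0, 3.75, 15 or 60 nM helveticoside, a cardiac glycoside purified from that extract. Every condition was a single array of RNA pooled from 3 cultures, so no dose has a replicate, and precision is set by the few arrays. The exposure was 48 h in the sample labels and 24 h in the methods. The dose of 0 is called the vehicle control, although the labels do not say what the control cultures were given. The comparison within each series asks how the genes moved with dose, and the comparison between the series asks whether the extract and the pure glycoside moved them alike.

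Type 2 cells of the alveolus make pulmonary surfactant, a film of lipid and protein that keeps the air spaces open. Surfactant is assembled and stored in lamellar bodies, which are loaded with phospholipid by the transporter ABCA3 and hold the protease NAPSA, which trims the precursor of SFTPB. NKX2-1 is a homeodomain factor required for lung development and for transcription of surfactant genes. Mucins are large glycoproteins carrying many O-linked sugar chains; MUC5AC and MUC5B form the airway gel, whereas MUC1 and MUC16 stay anchored in the surface membrane.

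Of the genes matched, 3 had a measurable signal on every array, and RefSeq promoter windows of these are shown because they carried most of the values reported below, the first window where a gene has several. Each is 250 bases long, ends at the base before an annotated transcript start, is read 5′ to 3′ on the minus strand of GRCh38.p14, and has the letters CAAG (or CTTG, the same letters on the other strand) in capitals. CAAG is the core of the sites that NKX2-1 is known to bind. The window of ABCA3 lies at chr16:2340729-2340978, that of MUC1 at chr1:155192916-155193165 and that of NAPSA at chr19:50369303-50369552.
ABCA3: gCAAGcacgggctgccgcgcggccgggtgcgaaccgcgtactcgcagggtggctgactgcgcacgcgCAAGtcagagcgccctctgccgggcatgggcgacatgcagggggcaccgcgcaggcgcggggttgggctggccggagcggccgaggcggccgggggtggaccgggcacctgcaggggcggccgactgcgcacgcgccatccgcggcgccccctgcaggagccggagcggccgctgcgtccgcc
MUC1: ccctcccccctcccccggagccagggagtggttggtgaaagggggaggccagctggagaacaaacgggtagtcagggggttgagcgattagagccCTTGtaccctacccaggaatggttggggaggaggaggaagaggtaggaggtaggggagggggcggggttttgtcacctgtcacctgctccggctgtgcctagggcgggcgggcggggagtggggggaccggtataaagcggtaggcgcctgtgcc
NAPSA: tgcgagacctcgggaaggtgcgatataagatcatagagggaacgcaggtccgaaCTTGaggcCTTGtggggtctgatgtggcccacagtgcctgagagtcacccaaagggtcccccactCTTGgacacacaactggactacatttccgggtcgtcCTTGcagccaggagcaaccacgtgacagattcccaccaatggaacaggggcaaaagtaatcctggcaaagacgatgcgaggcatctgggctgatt

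On both strands, CAAG was found at 2 places in the ABCA3 window, 1 in the MUC1 window and 4 in the NAPSA window, and 80.9% of 35116 RefSeq windows of this length hold it. The letters TATAA, the core of a TATA box, were found at 1 place in the MUC1 and NAPSA windows and at none in that of ABCA3, against 18.9% of all windows. GGGCGG, the core of a GC box, was found at 4 places in the MUC1 window, some of them overlapping, at 1 in that of ABCA3 and at none in that of NAPSA, against 42.6% of all windows. These matches are a description of the letters and not of binding. No match of one motif overlapped a match of another in these windows.

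A signal was taken as measured where the scanner software called the spot well above background. By this call 11498 genes were measured on all 8 arrays. The median signal per array was 182 to 278, over a median local background of 27 to 34, and 56.9% to 66.9% of probe spots were well above background, with the lower shares on the helveticoside arrays. After quantile normalization, the dimmest spot that passed the call had a log2 signal of 4.55 to 4.81 on the EEDS arrays and of 5.22 to 5.96 on the helveticoside arrays. A dim gene therefore passed more easily in the EEDS series.

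The members split into 3 groups. ABCA3, MUC1 and NAPSA were measured on every array, MUC5B on 6 arrays and SFTPC on 4, and NKX2-1, SFTPB, LAMP3 and MUC16 on none. Of 8 genes that define type 2 cells (SFTPA1, SFTPB, SFTPC, SFTPD, ABCA3, NAPSA, LAMP3 and NKX2-1), only ABCA3 and NAPSA were measured throughout. All 5 of the epithelial markers tested (EPCAM, KRT8, KRT18, KRT19 and CDH1) were measured on all 8 arrays. Of 12 further type 2 and surfactant genes with a probe, SFTPA2, LPCAT1 and PCYT1A were measured on every array, SFTPA2 by 1 of its 2 probes. All 9 matched members passed the limit on low values of the trend test, 1.4 times the local background on at least 1 array of a series, including those that were well above background nowhere.

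**Figure D1:**
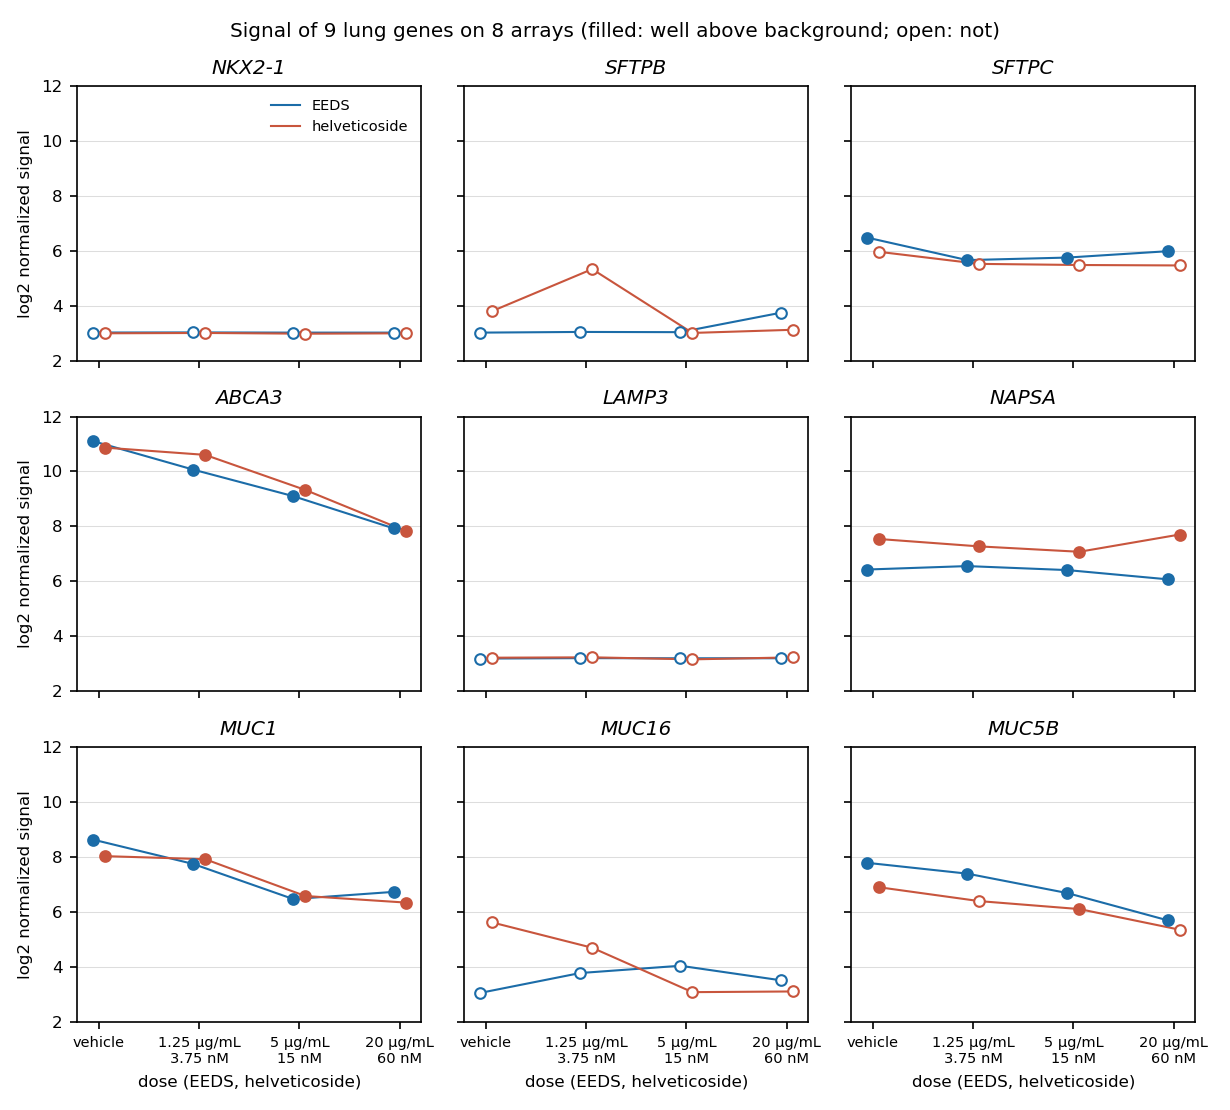
Log2 normalized signal (y axis) of the 9 matched genes on the 8 arrays, by dose of EEDS (blue) and helveticoside (red), with 1 array per point; filled points are well above background and open points are not. ABCA3 falls from about 11 to about 8 in both series, NKX2-1 and LAMP3 lie flat near 3, and MUC5B and SFTPC are partly or wholly open in the helveticoside series.

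The lineage factor and 3 other members were at or near the lower end of the scale. The normalized signal of NKX2-1 was 8.10 to 8.14 on the EEDS arrays and 7.88 to 8.03 on the helveticoside arrays, with a scanner error of about the size of the signal itself. LAMP3, a membrane protein of lamellar bodies and lysosomes, had a signal of 8.92 to 9.39 over all arrays. SFTPB had 8.10 to 13.4 on the EEDS arrays and 8.03 to 40.2 on the helveticoside arrays, the highest at 3.75 nM, and its second probe had 9.10 to 16.8. No array measured any of these genes, so no fold is given, and their absence from the measured genes holds at this sensitivity alone.

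MUC16, the large membrane mucin known as the CA125 antigen, was also well above background on no array. The signal of the probe used was 8.26, 13.7, 16.4 and 11.4 on the EEDS arrays in order of dose. It was 49.1, 25.9, 8.43 and 8.58 on the helveticoside arrays, where it was highest in the control. The helveticoside slope was −0.92 ± 0.19 (SE) log2 units per dose step, and limma gave it an adjusted p of 0.0399. The second MUC16 probe had 9.30, 8.31, 13.5 and 14.9 on those arrays, with its highest value at 60 nM. The slope therefore rests on 1 of 2 probes and on signals that the scanner software did not separate from background.

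ABCA3 was the most lowered member with both agents. Its normalized signal was 2204 ± 220 (scanner error of the single spot) on the EEDS control array, 1074 ± 107 at 1.25 μg/mL, 549 ± 55.2 at 5 μg/mL and 244 ± 25.0 at 20 μg/mL. In the helveticoside series it was 1871 ± 188 on the control array, 1558 ± 156 at 3.75 nM, 642 ± 65.5 at 15 nM and 228 ± 26.2 at 60 nM. Each dose lay below the one before it in both series, and both series ended at nearly the same signal.

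As a log2 ratio to its own control, ABCA3 was at −1.04 ± 0.20, −2.01 ± 0.20 and −3.18 ± 0.21 (propagated scanner error) with rising EEDS, 9.04-fold lower at the top dose. With rising helveticoside it was at −0.26 ± 0.20, −1.54 ± 0.21 and −3.03 ± 0.22, 8.19-fold lower at the top dose. The lowest helveticoside dose thus differed from the control by little more than the scanner error, whereas the lowest EEDS dose had already passed 2-fold. The error is that of the spot and leaves out the spread between cultures. Ranked from the most lowered, ABCA3 was 94th of 12971 genes measured on both the control and the 20 μg/mL arrays, and 68th of 11937 genes measured on both the control and the 60 nM arrays. RNA pooled from whole cultures cannot tell fewer cells with a transcript from less of it per cell.

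MUC1, a membrane mucin of glandular epithelia, was lower at the upper doses of both agents but without an even course. Its signal was 397 ± 40.0 on the EEDS control array, 215 ± 22.05 at 1.25 μg/mL, 88.4 ± 10.5 at 5 μg/mL and 106 ± 12.1 at 20 μg/mL. It was 261 ± 29.5 on the helveticoside control array, 242 ± 29.1 at 3.75 nM, 95.5 ± 14.0 at 15 nM and 81.0 ± 13.7 at 60 nM. Most of the difference lay between the lowest and the middle dose in both series, and from the middle to the top dose the log2 signal moved by 0.26 with EEDS and by −0.24 with helveticoside, each about the size of the scanner error.

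The log2 ratios of MUC1 were −0.89 ± 0.21, −2.17 ± 0.22 and −1.91 ± 0.22 with EEDS, and −0.11 ± 0.24, −1.45 ± 0.27 and −1.69 ± 0.29 with helveticoside. At the top dose this was 3.75-fold lower with EEDS and 3.23-fold lower with helveticoside. The second MUC1 probe, designed to a variant transcript, did not show this. It was well above background at 20 μg/mL EEDS and at 15 and 60 nM helveticoside alone, with signals of 28.7, 29.9, 33.8 and 56.0 over the EEDS doses and of 59.2, 65.5, 60.6 and 65.8 over the helveticoside doses. By that probe the 20 μg/mL EEDS array lay at least 1.95-fold above the control array, and the 2 probes disagreed in direction. With the mean of both probes the top-dose log2 ratio was −0.47 for EEDS and −0.77 for helveticoside, under 2-fold.

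MUC5B, a gel-forming mucin of airway glands, was lower at each higher dose. Its signal was 221 ± 23.0 on the EEDS control array, 168 ± 17.8 at 1.25 μg/mL, 103 ± 12.01 at 5 μg/mL and 51.7 ± 8.73 at 20 μg/mL, which is 4.27-fold lower, a log2 ratio of −2.09 ± 0.29. In the helveticoside series it was 119 ± 18.2 on the control array, 84.0 ± 18.9 at 3.75 nM, 68.7 ± 13.1 at 15 nM and 40.8 ± 11.9 at 60 nM. The 3.75 and 60 nM spots were not well above background, so the gene was at least 1.42-fold and at least 2.68-fold lower there. These bounds set the control signal against the dimmest spot that passed the call on the treated array, or against the spot's own signal where that was higher. At 15 nM, where it was measured, the log2 ratio was −0.79 ± 0.35. The MUC5B control signal itself was lower in the helveticoside series, by 0.89 on the log2 scale (scanner error 0.27).

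In the RefSeq gene order of GRCh38.p14, MUC5B lies in the mucin cluster of chromosome 11 between MUC5AC and TOLLIP, a regulator of innate immune signaling. The intestinal mucin MUC2 and the gastric mucin MUC6, in the same cluster, were measured on all 8 arrays and had log2 ratios of 0.36 and 0.15 at 20 μg/mL EEDS and of 0.43 and 0.42 at 60 nM helveticoside. TOLLIP was at 0.68 and 0.64. BRSK2, a kinase gene next after TOLLIP and measured on all arrays, was at −0.57 and −0.17. All of these neighbours stayed within 2-fold of their controls at the top doses, and whether their response differs from that of MUC5B was not tested. Below the top dose MUC6 did not, with log2 ratios of 1.64 at 3.75 nM and 1.58 at 15 nM helveticoside.

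NAPSA, the aspartic protease napsin A, stayed within 2-fold of its control at each dose of both agents. Its signal was 86.1 ± 11.1, 94.0 ± 11.6, 84.9 ± 11.0 and 67.3 ± 10.3 over the EEDS doses, and the log2 ratio at 20 μg/mL was −0.36 ± 0.29. It was 186 ± 24.5, 154 ± 24.6, 135 ± 18.7 and 208 ± 25.0 over the helveticoside doses, with a log2 ratio of 0.16 ± 0.26 at 60 nM. All signals of the helveticoside series lay above all those of the EEDS series, and the controls already differed by 1.11 on the log2 scale (scanner error 0.27), against a median of −0.11 and an SD of 0.50 over 12390 genes measured on both controls. The second NAPSA probe was well above background on no array.

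SFTPC, the hydrophobic surfactant protein made by type 2 cells alone in the normal lung, was measured in the EEDS series only. Its signal was 89.3 ± 10.8 on the control array, 50.5 ± 8.17 at 1.25 μg/mL, 53.9 ± 8.59 at 5 μg/mL and 63.2 ± 9.46 at 20 μg/mL. The log2 ratios were −0.82 ± 0.29, −0.73 ± 0.29 and −0.50 ± 0.28, so that every treated array lay below the control by less than 2-fold and the highest dose lay nearest to it. In the helveticoside series the signals were 62.3, 45.9, 44.6 and 44.2, none of them well above background, and no ratio is given.

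**Figure D2:**
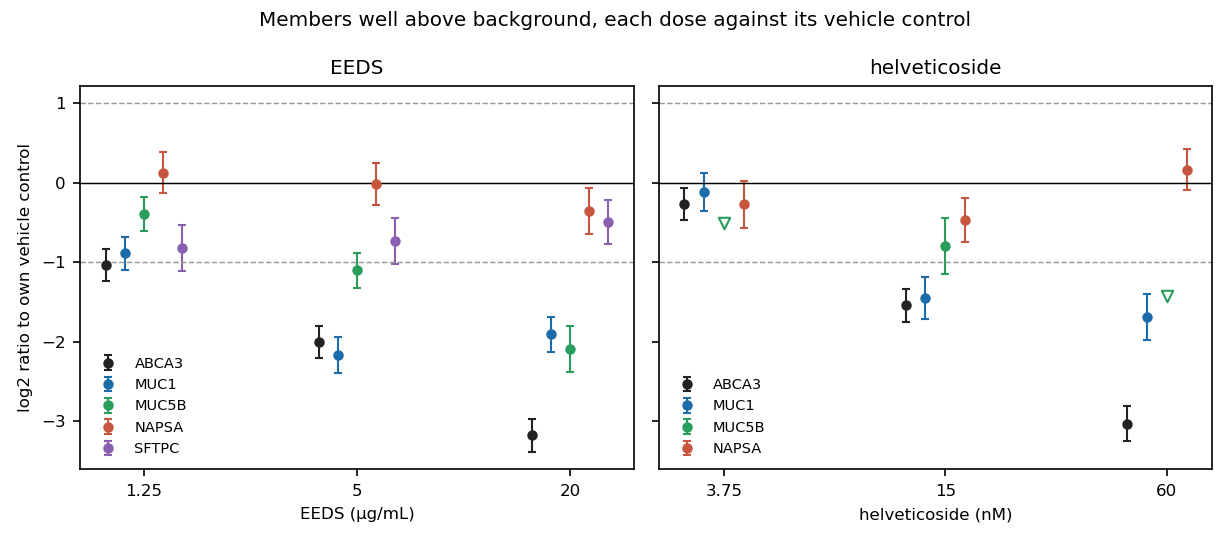
Log2 ratio (y axis) of each dose (x axis) to the vehicle control of its series for the members well above background, with bars for the propagated scanner error of the 2 spots; open triangles are bounds for MUC5B where the treated spot was not well above background, and dashed lines mark 2-fold. ABCA3, MUC1 and MUC5B lie below the lower dashed line at 20 μg/mL EEDS and at 60 nM helveticoside, while NAPSA and SFTPC stay between the dashed lines at every dose plotted.

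Counted over the 5 members measured with EEDS, 1 was more than 2-fold lower at 1.25 μg/mL (ABCA3), 3 at 5 μg/mL and 3 at 20 μg/mL (ABCA3, MUC1 and MUC5B at both), and none was more than 2-fold higher. Over all genes measured on at least 1 of the 2 arrays, 3.37%, 9.01% and 16.8% were more than 2-fold lower at these doses and 15.5% more than 2-fold higher at the top dose. Of the 4 members measured with helveticoside, none was more than 2-fold lower at 3.75 nM, 2 at 15 nM (ABCA3 and MUC1) and 3 at 60 nM (with MUC5B), and none was more than 2-fold higher. The shares over all genes were 1.69%, 7.9% and 14.1% lower and 11.5% higher at the top dose. With so few members these counts describe the genes named and no wider class. The median top-dose log2 ratio was −1.91 over the 5 members measured on both arrays with EEDS and −1.69 over 3 with helveticoside, against 0.02 and 0.03 over all genes.

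Because no dose was replicated, dose trends were tested by fitting a straight line of log2 signal over the dose step (0 to 3) in each series, so that the scatter of the 8 arrays about their lines stood in for replicates, with 4 residual degrees of freedom. The p-values are limma's, adjusted over 19046 genes, and curvature counts as scatter. ABCA3 fell, with a slope of −1.05 log2 units per step for EEDS (SE 0.13, adjusted p = 0.0145) and of −1.04 for helveticoside (SE 0.13, adjusted p = 0.0185). MUC5B fell with slopes of −0.70 for EEDS (SE 0.09, adjusted p = 0.0152) and −0.49 for helveticoside (SE 0.09, adjusted p = 0.0318). The helveticoside slope of MUC5B uses the signals at 3.75 and 60 nM, which were not well above background. MUC1 had slopes of −0.70 and −0.64 (SE 0.18) that missed the threshold, with adjusted p = 0.0546 and 0.0772. NAPSA and SFTPC had slopes between −0.15 and 0.03, with adjusted p of 0.541 to 0.958.

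By this test 2 of the 9 matched members fell with EEDS, against 7.85% of all genes, and 3 with helveticoside, against 5.8%; the third was MUC16, described above. No member rose, against 7.27% and 5.48% of all genes. ABCA3 and MUC5B fell with both agents, as did 4.69% of all genes. All of these calls are lost when either series is fitted alone or a dose is left out, and so is every other call of the array: 0 genes then passed the threshold, with 3259 to 5400 genes at an unadjusted p under 0.05.

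The extract and the glycoside were compared by the difference of their slopes, 1 pair of agents over the 9 members, with p-values adjusted over all genes. Doses were not matched, so the slopes compare dose steps and not equal exposures. For ABCA3 the EEDS slope minus the helveticoside slope was −0.01 (95% interval −0.47 to 0.45), for MUC1 −0.06 (−0.69 to 0.57), for MUC5B −0.21 (−0.53 to 0.11) and for NAPSA −0.15 (−0.56 to 0.26), each with an adjusted p of 1. The intervals leave room for a difference of about 0.5 log2 units per step in ABCA3. No difference was called for any member or any other gene (0.0% of those tested), and limma gave 525 genes an unadjusted p under 0.05, among them 1 member, MUC16.

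For each member measured on every array, the genes with the most similar 6 log2 ratios were sought among the 11498 genes measured on every array. Nearest to ABCA3 were CREB3L4, PTPN18 and ZNF18, with root mean square differences of 0.10, 0.14 and 0.16 on the log2 scale. CREB3L4, a membrane-bound transcription factor, was at −3.28 at 20 μg/mL EEDS and −3.08 at 60 nM helveticoside. Nearest to MUC1 were NHERF1, SNRNP25 and SNAP25 (0.18, 0.19 and 0.22). NHERF1, a scaffold protein of the apical membrane, was at −1.86 and −1.77 at the top doses. Nearest to NAPSA were RBM20, FIGNL2 and GOPC (0.12, 0.15 and 0.15).

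Other genes of the same biology were read from lists chosen for their role. Of 14 further type 2 and surfactant genes 12 were matched and 7 measured on some array. None fell or rose with EEDS, and 1 rose with helveticoside, beside 5.48% of all genes: SFTPA1 (adjusted p = 0.0390), a collectin of surfactant that was well above background on no array. SFTPA2, its near-identical paralog, had a log2 signal of 10.7 to 12.4 by one probe and of about 3.0 by the other, so that its level is uncertain; the brighter probe had top-dose log2 ratios of −0.997 and −0.48. HHIP, an inhibitor of hedgehog signaling, was at least 2.56-fold lower at 20 μg/mL EEDS, without a called trend. It lay above its control at 1.25 and 5 μg/mL EEDS (0.58 and 0.43) and was at least 1.46-fold higher at 15 nM helveticoside. LPCAT1, which makes surfactant phosphatidylcholine, was measured on all arrays at −0.43 and 0.10, and PCYT1A, the rate-limiting enzyme of phosphatidylcholine synthesis, at 0.38 and 0.03.

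All 26 lung and endoderm lineage factors were matched and 23 measured on some array. With EEDS 1 rose and 6 fell, beside 7.27% and 7.85% of all genes, and with helveticoside 1 rose and 1 fell, beside 5.48% and 5.8%. Except for the 6 falls with EEDS, these counts are near or under the shares over all genes. The median top-dose log2 ratio was −0.34 with EEDS and −0.15 with helveticoside. GATA6, a zinc finger factor of lung endoderm, rose with both agents, to a log2 ratio of 2.97 at 20 μg/mL EEDS (adjusted p = 0.0198) and of 2.74 at 60 nM helveticoside (adjusted p = 0.0284). CEBPA, a factor of type 2 cell maturation, fell with both, to −1.75 (adjusted p = 0.0207) and −1.47 (adjusted p = 0.0324).

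SPDEF, a factor of mucous cell differentiation, was at −0.54, −3.14 and −3.52 over the EEDS doses and fell with EEDS (adjusted p = 0.0335). It was at 0.16, −2.15 and −2.88 over the helveticoside doses, where the trend missed the threshold (adjusted p = 0.0582). FOXA3 was at 1.74 and 1.15 at the top doses and SOX9 at 1.11 and 1.77, without a called trend. FOXA1 and FOXA2, pioneer factors that act with NKX2-1 in the lung, were measured on all arrays and lay between −0.36 and −0.13 at the top doses. HOPX, a factor of the alveolar epithelium, was within 0.27 of its control at every dose, but its control signals differed by 2.82 on the log2 scale between the series, the same direction as in NAPSA.

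Of 17 other mucins 13 were matched and 8 measured on some array. With EEDS 3 rose (MUC12, OVGP1 and CD164) and with helveticoside 2 (MUC12 and OVGP1), beside 7.27% and 5.48% of all genes, and none fell, beside 7.85% and 5.8%. OVGP1, the oviduct mucin, was at a log2 ratio of 2.54 at 20 μg/mL EEDS (adjusted p = 0.0199) and at least 3.28-fold higher at 60 nM helveticoside (adjusted p = 0.0444). MUC12 was well above background on the 20 μg/mL array alone, where it was at least 1.62-fold higher. CD164, a small mucin-like adhesion protein, reached 0.89 and 0.86. MUC4, a membrane mucin measured on every array, lay at 0.22 and 0.38. The median top-dose log2 ratio was 0.58 over 6 mucins measured with EEDS and 0.43 over 4 with helveticoside, above 0 where the medians of the members were below it; no test was made of that contrast.

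Of 29 genes of mucin O-glycosylation and secretion 28 were matched and 23 measured on some array. With EEDS 2 rose (GALNT2 and C1GALT1) and 2 fell (GCNT3 and FCGBP), and with helveticoside 2 rose (GALNT2 and C1GALT1) and 3 fell (GALNT10, GALNT11 and FCGBP). C1GALT1, which extends the first sugar of O-linked chains, was at 1.12, 1.66 and 2.42 over the EEDS doses (adjusted p = 0.0132) and at 0.65, 1.18 and 2.07 over the helveticoside doses (adjusted p = 0.0165). GALNT2, which attaches that first sugar, reached 1.25 (adjusted p = 0.0151) and 1.61 (adjusted p = 0.0165). FCGBP, a mucus protein that binds the Fc part of IgG, fell to −2.37 (adjusted p = 0.0283) and −1.98 (adjusted p = 0.0467). These counts stand beside 7.27% of all genes rising and 7.85% falling with EEDS, and 5.48% and 5.8% with helveticoside. More than 2-fold at the top dose, 3 were higher and 8 lower of 22 measured with EEDS, beside 15.5% and 16.8% of all genes. With helveticoside 3 were higher and 6 lower of 19, beside 11.5% and 14.1%, so that the counts of higher genes were close to those of all genes.

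**Figure D3:**
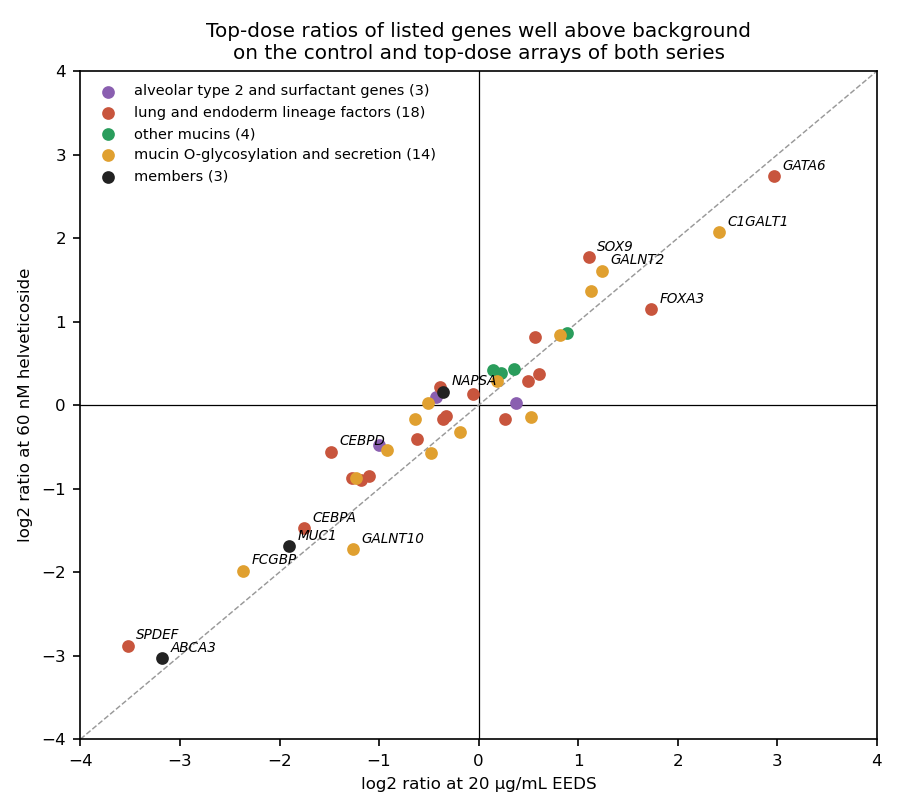
Log2 ratio at 60 nM helveticoside (y axis) against that at 20 μg/mL EEDS (x axis), each to its own vehicle control, for listed genes well above background on the 4 arrays involved; colours give the list, numbers in the key count its genes, and the dashed line marks equal ratios. ABCA3 and MUC1 lie at the lower left with SPDEF, CEBPA and FCGBP, NAPSA lies near the centre, and GATA6 and C1GALT1 lie at the upper right.

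Markers of cell types moved as well. Of the 5 epithelial markers 4 fell with EEDS and 3 with helveticoside, beside 7.85% and 5.8% of all genes, with median top-dose log2 ratios of −0.78 and −0.74. CDH1, the epithelial cadherin, was at −2.71 with each agent (adjusted p = 0.0364 and 0.0452), and KRT19 at −1.90 and −1.72 (adjusted p = 0.0302 and 0.0442). KRT18 fell to −0.58 and −0.56 (adjusted p = 0.0311 and 0.0352). EPCAM had no called trend and was at 0.05 and −0.26 at the top doses (adjusted p = 0.99 and 0.42). Of 6 type 1 cell markers 2 rose with each agent, beside 7.27% and 5.48% of all genes. They were CAV1 (1.15 and 0.69, adjusted p = 0.0190 and 0.0499) and CLIC5 (1.002 and 1.14, adjusted p = 0.0157 and 0.0185). AGER was at 1.03 and 0.88 with no called trend, and higher, at 1.52, at the lowest dose of each agent. The other type 1 markers did not rise. AQP5, measured on every array, was at −0.03 and −0.06 at the top doses. RTKN2 was at −0.73 at 20 μg/mL EEDS, and PDPN was well above background on no array.

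No trend was called among 5 club, 3 ciliated and 4 basal cell markers. Of all genes 7.27% rose and 7.85% fell with EEDS, and 5.48% and 5.8% with helveticoside. Only 3 club, 1 ciliated and 0 basal markers were measured on every array, so the lack of calls says little. SCGB3A1, a secretoglobin of airway cells, was at −1.05 at 20 μg/mL EEDS. TP63, a basal cell marker, was at least 2.02-fold lower there and at least 1.33-fold lower at 60 nM helveticoside. Of 8 markers of leukocytes, endothelium and fibroblasts, CD14, PTPRC and COL1A1 were well above background on every array and the other 5 on none. CD14 was at −1.57 and −2.28 at the top doses without a called trend. The summed normalized signal of these 8 markers was 3340 and 2978 on the control arrays and ran from 1070 to 3797 on the treated EEDS arrays and from 1170 to 4121 on the treated helveticoside arrays. On the 2 control arrays the log2 signal was 11.5 and 11.3 for CD14, against 8.35 and 7.89 for COL1A1. The sum therefore mostly follows CD14 and does not describe the 8 markers as a group. The part of these markers in the values of ABCA3, MUC1 and MUC5B was not tested.

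The size of some of these changes depended on how the signal was treated. ABCA3 stayed more than 4-fold lower at both top doses in all alternatives, with log2 ratios of −3.38 to −2.75 for EEDS and −3.27 to −2.40 for helveticoside. MUC5B ran from −2.66 to −1.04 for EEDS. For helveticoside, where the 60 nM spot was not well above background and only a bound can be given, the bound ran from −2.31 to −0.64. It did not reach 2-fold with the signal as scanned (−0.75), with normexp correction (−0.73) or in the authors' deposited values (−0.64), which leaves the size of the change above it unmeasured. MUC1 in the deposited values was at −0.95 for helveticoside. Against the EEDS control in place of its own, NAPSA was at 1.27 at 60 nM helveticoside, more than 2-fold higher.

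**Figure D4:**
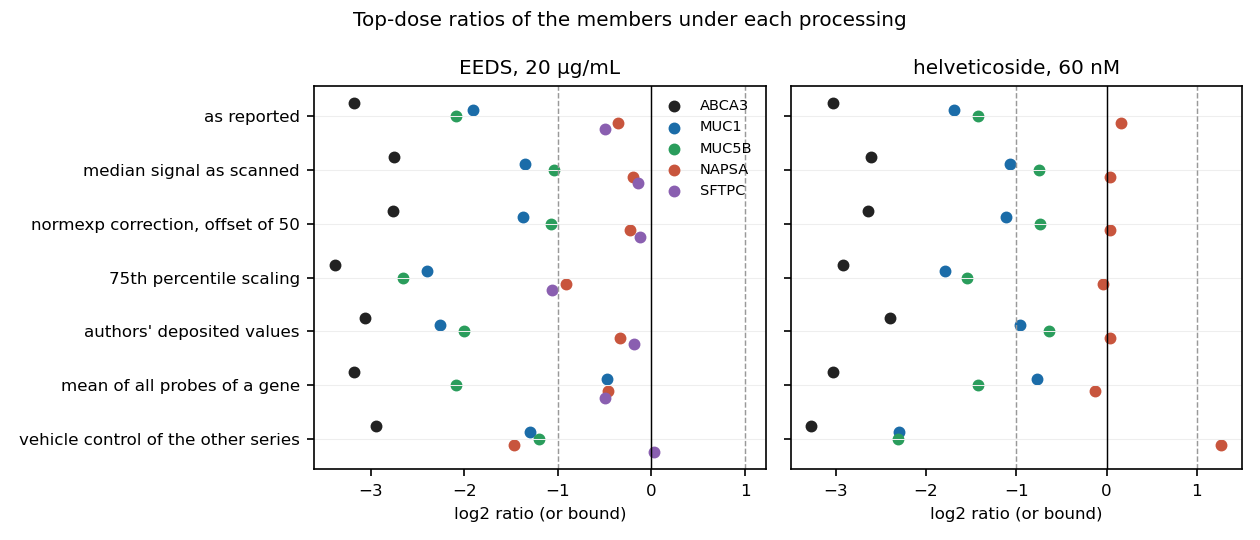
Log2 ratio or bound (x axis) of the members well above background at 20 μg/mL EEDS (left) and 60 nM helveticoside (right), as reported and under each alternative processing (y axis); dashed lines mark 2-fold. ABCA3 stays at or below −2.40 in every line of both panels, whereas MUC1 passes −1 with the mean of all probes and NAPSA moves most with the control of the other series.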

How the data were processed

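For each of the 8 arrays the authors deposited the Feature Extraction intensity of each spot (processed signal, its error, the median signal and the local background) with calls for outliers and for spots well above background; the label was Cy5. A table of processed intensity deposited by the authors served as an alternative. Per the study's methods, spots over 1.4 times the local background were selected and quantile-normalized; the array's genome build is not given in the sources used here. Here, control spots and outlier spots were dropped, and the processed signal of 34127 probes was averaged over spots, quantile-normalized over the 8 arrays and put on the log2 scale. Per the file headers each probe carries an accession, and 24812 probes matched 19056 RefSeq genes; 4797 genes had several probes, of which the brightest on average stood for the gene. Genes under 1.4 times the local background on all 4 arrays of a series were dropped, leaving 19046. No slide or date was given, so no batch other than the series could be examined, and series and agent cannot be told apart.

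Ratios compare each dose with its own control, with no test. Trends were fitted with limma 3.58.1 (R 4.3.3, statmod 1.5.0; eBayes with trend and robust estimation, Benjamini-Hochberg adjustment, threshold 0.05), which was tested on simulated data. The other steps used Python 3.11.15, numpy 2.4.6 and pandas 2.3.3. Alternatives tried were the median signal without background subtraction (as scanned), normexp with an offset of 50, 75th percentile scaling, the deposited table, the other series' control, the mean of all probes, other filters and variance moderation, each series alone, and leaving out a dose. The members, lists and tests were chosen with earlier results of these data known. Members were all named; from the lists, genes with a trend in both series, the 2 largest rises and falls over 2-fold per list and agent, and the 3 genes most alike to each member were named by rule, and further ones after their values were seen.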

Additional observations from a re-analysis of the deposited data

How the results depend on the processing

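Among the slopes of ABCA3, MUC1, MUC5B, NAPSA and SFTPC and their top-dose ratios, no called trend and no difference over 2-fold changed direction in the alternatives run. The called slope of MUC16 and the ratios at lower doses were not followed through the alternatives. Uncalled values near 0 did: SFTPC at 20 μg/mL EEDS went from −0.50 to 0.02 with the helveticoside control, and NAPSA at 60 nM helveticoside from 0.16 to −0.04 (75th percentile scaling) and −0.13 (mean of all probes), its slope from 0.03 to as low as −0.23 without the top dose. No member was more than 2-fold higher at 60 nM helveticoside, but 1 (NAPSA) was with the EEDS control in its place, and 3 members were more than 2-fold lower there but 1 (ABCA3) in the authors' deposited values. The number of members with a called trend, 2 for EEDS and 3 for helveticoside, was 0 for both agents with the 4 arrays of each series fitted separately and without the lowest, the middle or the top dose. These fits have fewer arrays and call 0 genes in all; ABCA3 kept slopes of −1.11 to −0.91 (EEDS) and −1.07 to −0.77 (helveticoside) over 11 alternatives, with adjusted p from 0.00293 to 0.190 and from 0.00391 to 0.275. MUC1 passed the threshold in 4 of the 11 for each agent (signal as scanned, normexp, 75th percentile scaling, and the filter on spots well above background), and MUC5B missed it for helveticoside with normexp (adjusted p = 0.0544). Scaling to the 75th percentile moved the median of all genes by −0.36 at 20 μg/mL EEDS and by −0.18 at 60 nM helveticoside. With this scaling 4 members, SFTPC among them, and not 3 were more than 2-fold lower at 20 μg/mL EEDS. With the helveticoside control there were also 4, NAPSA among them. Of the counts of members recomputed, 46 stayed within 1.5 times their value and 10 did not. A count that stayed did not always hold the same members. With the signal as scanned the 3 helveticoside trends were those of ABCA3, MUC1 (limma adjusted p = 0.0457) and MUC5B (0.0458), without MUC16. Nor was MUC16 among the 2 called with normexp or the 2 called with the mean of all probes. The 46 include counts of 0 that stayed 0, for which such a ratio says nothing. These are counts of members higher at the top dose and of slope differences. No paired analysis was possible because each condition had 1 array and the labels give no shared replicate numbers. Signal over background left SFTPC with helveticoside without a ratio, and MUC5B at 3.75 and 60 nM helveticoside with bounds. It left NKX2-1, SFTPB, LAMP3 and MUC16 without a fold.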
